A study of Mus musculus with 6 samples.

Results

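The genes described here are 42 genes of lipid metabolism that cover cholesterol synthesis, sterol sensing, fatty acid synthesis, desaturation and elongation, mitochondrial fatty acid oxidation, and the uptake, esterification and efflux of lipids. They were taken by symbol from a list, and all 42 were found among the 15106 genes of the count table. Of these, 40 had enough counts to be tested, among 11775 genes tested in all, and the other two, Cd36 and Dgat2, were too low in most libraries.

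Libraries were made from mouse T cells that had been sorted by flow cytometry from skin: 4 of regulatory T cells (Tregs, the suppressive T cells defined by the transcription factor FOXP3) and 2 of effector T cells (Teffs). Every library came from mice of one kind, FOXP3-GFP reporter animals aged 6 weeks, in which green fluorescent protein marks cells that express FOXP3, and no treatment is named for either group. The labels do not give the sort gates, say whether animals were pooled, or tie libraries to separate animals, so p-values measure only the spread between these libraries, which may be technical. The comparison asks how transcript levels differ between Tregs and Teffs of the same tissue, and every difference below is Treg minus Teff.

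Cells make cholesterol from acetyl-CoA through mevalonate, squalene and lanosterol, and fatty acids from acetyl-CoA through malonyl-CoA. The SREBP transcription factors switch on both routes when membranes run short of sterol: SCAP carries SREBP to the Golgi for cleavage, and INSIG1 holds it back in the endoplasmic reticulum. Fatty acids are burned in mitochondria, and the CPT1 and CPT2 enzymes act in their entry. Proliferating effector T cells are known for raising lipid synthesis, Tregs are often described as relying more on fatty acid oxidation, and skin also holds sebaceous glands and adipocytes, which are rich in lipid enzymes.

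The libraries held 4902126 to 7468778 counts in genes. Levels are given as CPM, counts scaled to a common library size, with edgeR's trimmed mean of M values (TMM), and a library with no counts for a gene still allows up to 3 counts, which is 0.396 to 0.579 CPM and covers counting error only. Foxp3 stood at 103, 232, 154 and 182 CPM in Tregs 1 to 4 against 11.2 and 7.10 in the Teff libraries, so the labels matched this gene. The 8 T cell markers were detected in every library and summed to 4623 CPM in Treg 3 and 7262 to 9217 CPM elsewhere. Markers of CD8 T and NK cells, 5 of 6 in the table, summed to 11.9 to 94.1 CPM in Tregs and 269 and 243 CPM in Teffs. Those of gamma-delta T cells, 2 of 6 in the table, summed to 0 CPM in Tregs and 15.4 and 14.9 CPM in Teffs. Tregs 1 and 2 lacked any count for 21.6% and 19.9% of the genes tested, against 2.23% to 11.3% in the other libraries. The summed level of 9 fibroblast markers was 2998 CPM in Treg 3 and 363 CPM in Teff 1, against 4.27 to 10.4 CPM in the other libraries. The 8 of 10 keratinocyte markers in the table summed to 831 CPM in Treg 3, 131 CPM in Teff 1 and 0.797 to 43.3 CPM elsewhere. The 7 of 10 adipocyte markers in the table summed to 131 CPM in Treg 3, nearly all of it Car3, and to 0 to 10.04 CPM elsewhere. Adipoq, a defining adipocyte gene, was at 0 in all Treg libraries and in Teff 1.

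**Figure D1:**
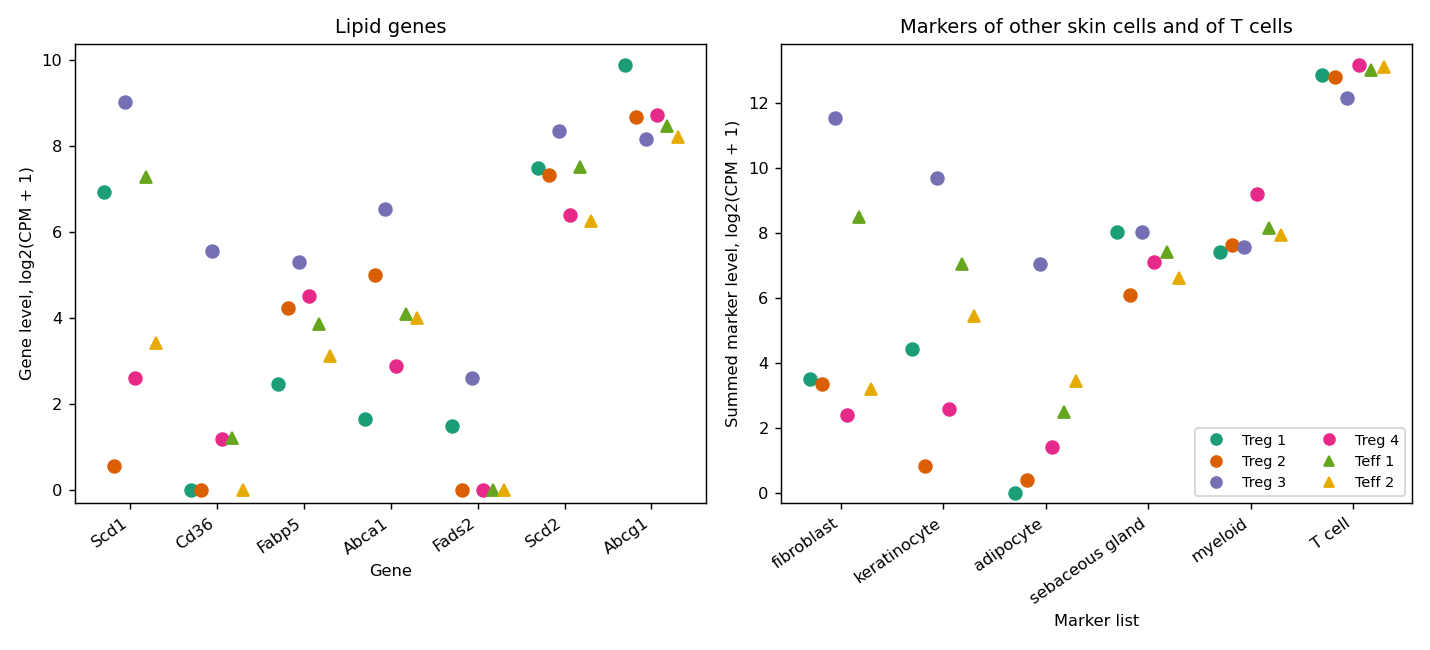
Levels on the log2(CPM + 1) scale in each library (circles Treg, triangles Teff, 1 colour per library), for 7 lipid genes on the left and for summed markers of other skin cells and of T cells on the right. Treg 3 is highest for the fibroblast, keratinocyte and adipocyte markers and for Scd1, Cd36, Fabp5, Abca1, Fads2 and Scd2, but not for Abcg1. The 7 genes drawn are a selection. Of all 40 genes tested, Treg 3 is highest for 13 (32.5%, against 20.3% of all 11775). Treg 1 is highest for 15 of the 40 (37.5%, against 19.8%).

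No gene of the list passed the test between Tregs and Teffs. Of 40 genes tested, 0 were called at an adjusted p under 0.05 (edgeR's quasi-likelihood test, Benjamini-Hochberg over all genes tested; adjusted p 0.999992 for each), where the background was 5 of 11775 genes, or 0.0425%. None had an unadjusted p under 0.05 either, against 4.73% of all genes, and the lowest was 0.108 for Fads2. DESeq2 called 0 of the 40, against 183 genes or 1.55% of all tested, and none had an unadjusted p under 0.05 in it. It gave an adjusted p for 10289 of the 11775 genes, and none for Fads2. In the authors' deposited table, 0 of the 42 had a false discovery rate under 0.05, and 43 genes of the whole table did.

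The libraries of both groups overlapped for 38 of the 40 genes. In 1 gene, Elovl1, the lowest Treg library exceeded the highest Teff library, as in 5.52% of all genes, and in 1 gene, Dhcr7, the highest Treg library was below the lowest Teff library, as in 9.49%. With 4 libraries against 2, an exact two-sided permutation test of a single gene cannot go below p = 0.0667. The fitted log2 fold change was positive for 32 genes and negative for 8, or 80% positive against 53.5% of all genes tested, and its median was 0.48 against 0.07 over all genes. Both rested partly on single libraries. Without Treg 1 the median was 0.24, with 26 of 39 genes positive, and without Teff 1 it was 0.79, with 37 of 42 positive. All 40 intervals (95%) of the log2 fold change spanned 0, 37 reached as high as 1 and 32 as low as -1, so for nearly all genes a doubling in Tregs could not be told from no difference at this number of libraries. In bulk libraries, fewer cells of a type and less RNA per cell cannot be told apart.

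**Figure D2:**
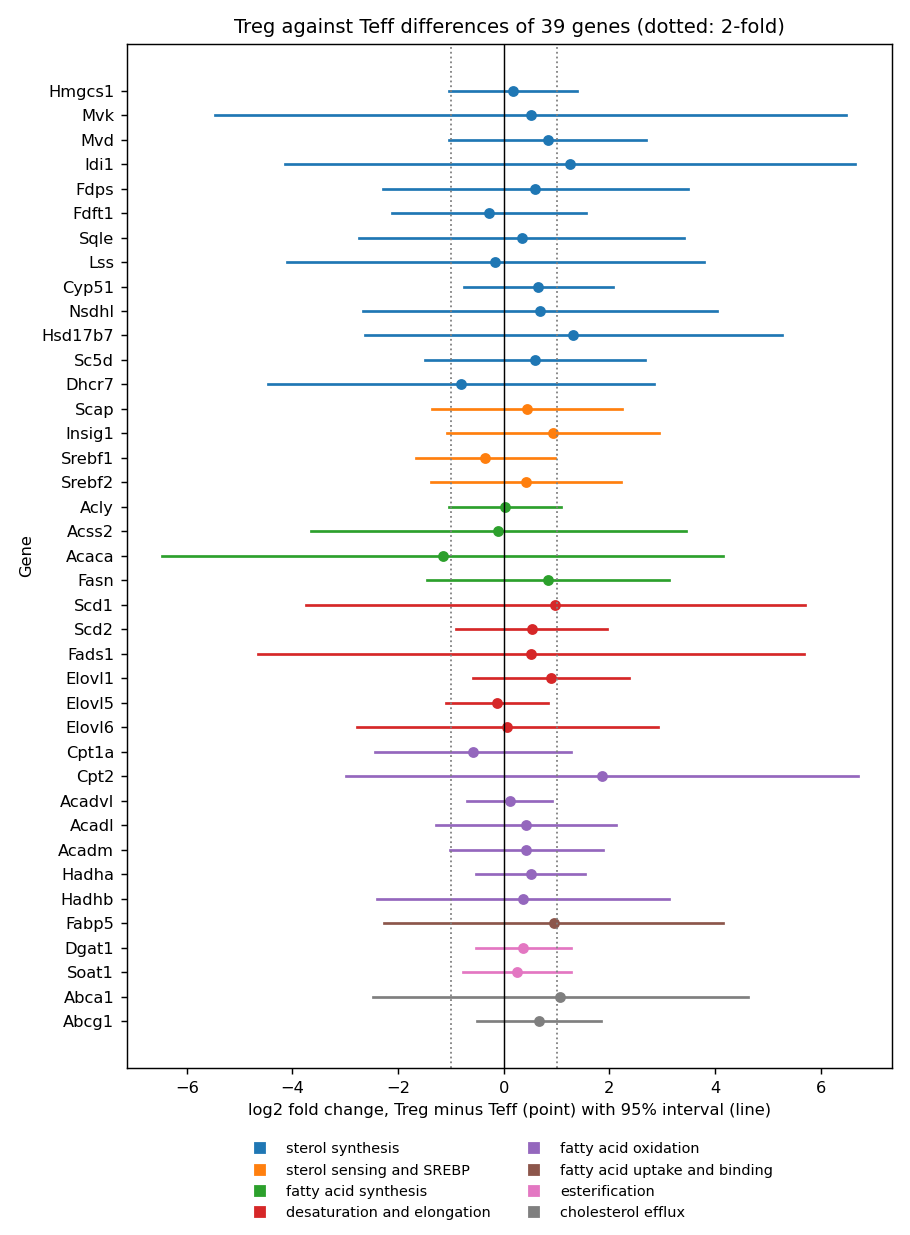
Log2 fold change, Treg minus Teff, of 39 genes tested (points), coloured by role, with lines for the 95% interval and dotted lines at -1 and 1. Fads2 is not drawn because the Teff libraries held no count of it, every interval spans 0, and that of Acadvl is the only one that stays between the dotted lines.

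Levels spread widely among the Treg libraries. The coefficient of variation of CPM over the 4 Treg libraries had a median of 65.0% for the 40 genes and 76.3% for the 11686 tested genes with a count in Tregs. Spread depends on level, and the 4531 genes with a mean of 40 to 250 CPM had a median of 53.0%. The 40 genes were not limited to that range, so their median is not matched to it by level. The spread differed by role, with a median of 41.9% for the oxidation genes, 73.1% for sterol synthesis, 84.3% for desaturation and elongation, and 99.8% for fatty acid synthesis. Of the 40 genes, 8 (20%) had no count in at least 1 library, against 33.4% of all genes. Treg 2 had no count for 7 of them, Mvk, Idi1, Lss, Dhcr7, Fads1, Fads2 and Cpt2, and each other library had none for 1.

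**Figure D3:**
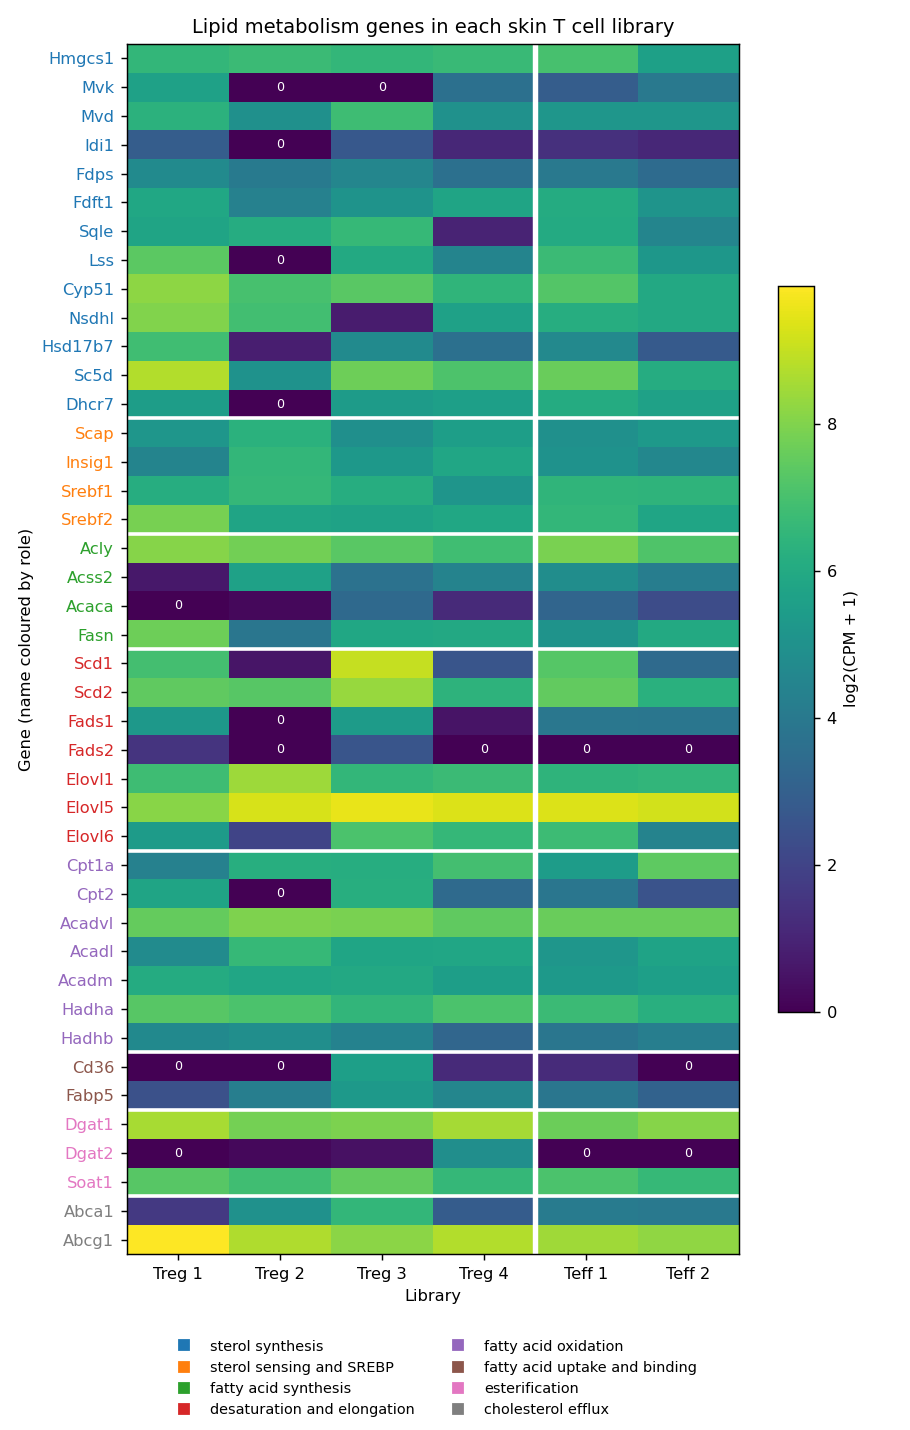
Level of each of the 42 genes in each library, as log2(CPM + 1), with genes in rows ordered by role and the 6 libraries in columns. Treg 2 has the most genes at 0, 8 of the 42. The Treg columns differ from each other, with a median coefficient of variation of CPM of 65.0% for the 40 genes tested.

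The 13 genes of sterol synthesis had a median log2 fold change of 0.59, with 10 positive and 3 negative and 0 called. Without Treg 1 the median was -0.0874. Treg 1 held the highest level for 8 of the 13 genes (61.5%, against 19.8% of all genes tested), and Treg 2 held or shared the lowest for 8 of the 13 (61.5%, against 35.8%). Their levels summed to 1670, 519, 861 and 569 CPM in Tregs 1 to 4 and to 931 and 449 CPM in the Teff libraries. Both Teff sums fell beside the Treg sums: one lay above 3 of them, and the other lay below all 4.

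Hmgcs1, which makes the HMG-CoA from which mevalonate is formed, stood at 91.5, 105, 93.0 and 104 CPM in Tregs 1 to 4 and at 126 and 47.5 CPM in the Teff libraries. The Treg libraries lay close together, at 98.4 ± 7.13 CPM (SD, n = 4), and between the Teff values, at 86.8 ± 55.6 CPM (SD, n = 2). The log2 fold change was 0.18 with a 95% interval from -1.03 to 1.39. Its coefficient of variation over Tregs, 7.25%, was low: 0.177% of those 4531 genes had a lower one. Hmgcs1 lies on chromosome 13 (GRCm38, chr13:119690379-119708260, plus strand), and 12.1% of its exonic bases overlap another annotated gene, Gm48342, whose reads cannot be told apart if counting ignored strand.

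Sqle, the squalene epoxidase, stood at 53.4, 69.2, 96.6 and 0.995 CPM in Tregs and at 65.1 and 21.8 CPM in Teffs. Treg 4 held 7 counts of it, while the other Treg libraries lay between or above the Teff libraries. Cyp51, which removes a methyl group from lanosterol, stood at 291, 129, 163 and 87.7 CPM in Tregs and at 152 and 61.8 CPM in Teffs, for a log2 fold change of 0.65 (95% interval -0.76 to 2.06). Sc5d, which places a double bond in the sterol ring, stood at 430, 31.7, 206 and 140 CPM against 198 and 68.9 CPM. For both, Treg 1 was highest and the groups overlapped, and without Treg 1 the log2 fold change was 0.24 for Cyp51 and -0.0874 for Sc5d. Without Teff 1 that of Cyp51 was 1.43, and without Teff 2 it was 0.12.

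Dhcr7 carries out the last step of one branch of cholesterol synthesis. It stood at 44.1, 0, 41.4 and 47.1 CPM in Tregs and at 66.4 and 50.02 CPM in Teffs. All Treg libraries lay below both Teff libraries, but Treg 4 and Teff 2 were close, and Treg 2 had no count. The log2 fold change was -0.81 with a standard error of 1.58 and a 95% interval from -4.47 to 2.84. The remaining genes of this route were uneven too: Nsdhl ranged from 0.699 CPM (4 counts, Treg 3) to 259 CPM (Treg 1) among Tregs, and Lss from 0 CPM (Treg 2) to 168 CPM (Treg 1). Idi1 was the lowest, at 0 to 6.47 CPM in Tregs and 1.58 and 1.16 CPM in Teffs. Idi1, Fdps and Fdft1 share 27.1%, 27.9% and 31.9% of their 31-base exonic windows with other annotated genes or copies, so their levels are uncertain.

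Promoter sequences were available in RefSeq (GRCm38.p6) for 10 of the 13 sterol synthesis genes and 22 of the other 29 members, as windows of 300 bases that run from 250 bases before to 50 after each start. They were searched on both strands for the NF-Y box CCAAT (which reads ATTGG on the other strand), the SREBP element core CACCCCAC, and the wider form CACCCNAC, which includes that core. The NF-Y box was found in 10 of 10 sterol synthesis genes, in 11 of 22 other members and in 41.1% of the 27025 genes with a window. CACCCNAC was found in 2 of 10 sterol synthesis genes, Hmgcs1 and Nsdhl, in 0 of the 22 others and in 5.83% of all genes. The core itself was found in Hmgcs1 alone among the members and in 3.30% of all genes. These matches are descriptions of letters and no measure of binding. Below are the stretches before the start of the genes that hold CACCCNAC, and of Mvk, which had the most NF-Y boxes of those printed, 5′ to 3′ on the gene's strand with both motifs in capitals. Hmgcs1 is read from chr13:119690106-119690318, Nsdhl from chrX:72918309-72918513 and Mvk from chr5:114444088-114444267.
Hmgcs1: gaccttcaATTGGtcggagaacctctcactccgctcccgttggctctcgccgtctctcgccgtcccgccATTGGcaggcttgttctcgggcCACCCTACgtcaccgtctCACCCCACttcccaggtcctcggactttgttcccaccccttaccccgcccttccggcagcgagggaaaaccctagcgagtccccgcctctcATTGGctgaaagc
Nsdhl: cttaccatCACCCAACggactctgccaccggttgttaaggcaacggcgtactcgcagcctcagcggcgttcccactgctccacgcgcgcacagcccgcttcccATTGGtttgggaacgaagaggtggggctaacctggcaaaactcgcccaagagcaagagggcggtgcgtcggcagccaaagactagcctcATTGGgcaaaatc
Mvk: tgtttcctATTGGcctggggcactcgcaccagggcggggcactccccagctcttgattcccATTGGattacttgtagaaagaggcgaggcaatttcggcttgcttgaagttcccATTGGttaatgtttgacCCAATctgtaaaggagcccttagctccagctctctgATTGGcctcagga
Hmgcs1 carries 3 NF-Y boxes and 2 CACCCNAC matches in this stretch, Nsdhl 2 and 1, and Mvk 5 and none. Hmgcs1 was even across Tregs, while Mvk stood at 49.1, 0, 0 and 11.7 CPM in Tregs and 6.47 and 14.9 CPM in Teffs. Nsdhl stood at 259, 118, 0.699 and 48.8 CPM in Tregs and 71.0 and 61.6 CPM in Teffs, highest in Treg 1 like Mvk. The part of the motifs in these levels was not tested.

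The 4 genes of sterol sensing had a median log2 fold change of 0.43, with 3 positive, 1 negative and 0 called, and the median was 0.0968 without Treg 1 and 0.29 without Treg 2. Insig1, the retention factor, stood at 21.0, 92.5, 37.9 and 57.0 CPM in Tregs and 32.1 and 22.6 CPM in Teffs, and only Treg 1 lay below a Teff library. Its log2 fold change was 0.93 (95% interval -1.07 to 2.93). Srebf1, whose main product drives fatty acid genes, stood at 69.4, 95.2, 69.9 and 34.6 CPM in Tregs against 86.7 and 84.2 CPM in Teffs, with 3 of 4 Tregs below both Teffs. Srebf2, the factor for sterol genes, stood at 233 CPM in Treg 1 and at 53.9, 50.7 and 57.5 CPM in the other Tregs, against 92.5 and 55.6 CPM in Teffs. Its log2 fold change of 0.41 rested on Treg 1 and was -0.46 without it. Scap ranged from 29.4 to 78.6 CPM in Tregs and stood at 29.8 and 39.98 CPM in Teffs, with 13.2% of its exonic bases overlapping another gene.

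**Figure D4:**
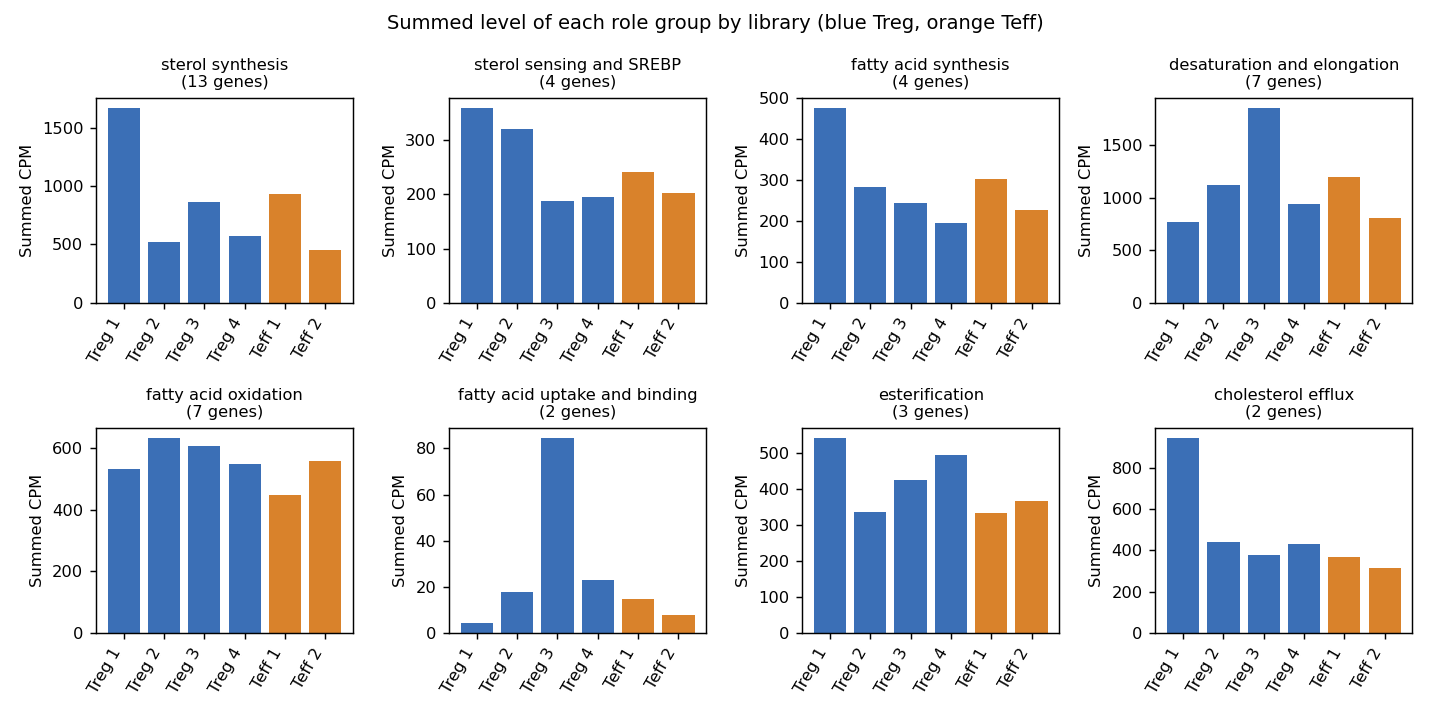
Summed CPM of the genes of each role in each library (vertical axes from 0), with 1 bar per library. The sterol synthesis sum ranges from 449 to 1670 CPM and the oxidation sum from 450 to 634 CPM, and efflux is the role in which every Treg bar is above both Teff bars.

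The 4 fatty acid synthesis genes had a median log2 fold change of -0.04, with 2 positive and 2 negative, and leaving out 1 library moved it between -0.41 (without Treg 2) and 0.33 (without Teff 1). Acly, which makes cytosolic acetyl-CoA from citrate, stood at 271, 218, 163 and 113 CPM in Tregs and at 234 and 144 CPM in Teffs. The group means were 192 ± 68.3 CPM (SD, n = 4) and 189 ± 63.4 CPM (SD, n = 2), and the log2 fold change was 0.02 with an interval from -1.04 to 1.08. Fasn, the fatty acid synthase, stood at 205, 13.9, 58.7 and 60.9 CPM in Tregs against 32.6 and 62.4 CPM in Teffs. Its Treg values spread on either side of the Teff values, and its log2 fold change was 0.83, or -0.0945 without Treg 1.

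Acaca, which makes malonyl-CoA, was the lowest member per length of exon. It stood at 0, 0.159, 9.44 and 1.28 CPM in Tregs and at 8.31 and 3.86 CPM in Teffs, and 33.5% of its exonic windows are shared with other annotated copies. Treg 3 and Teff 1, which held the most fibroblast and keratinocyte transcripts, also held the most Acaca, and the part of those transcripts in this result was not tested. Acss2, which makes acetyl-CoA from acetate, ranged from 0.539 to 49.8 CPM in Tregs and stood at 27.4 and 17.2 CPM in Teffs.

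The 7 desaturases and elongases had a median log2 fold change of 0.53, with 6 positive and 1 negative. The median was -0.19 without Treg 3, -0.00244 without Teff 2 and 1.28 without Teff 1. Treg 3 held the highest level of 6 of the 7 (85.7%, against 20.3% of all genes tested). Scd1 and Scd2 place the first double bond in saturated fatty acids, and both lie on chromosome 19 (chr19:44394455-44407879, minus strand, and chr19:44293674-44306864, plus strand). Scd1 stood at 122, 0.478, 517 and 5.12 CPM in Tregs and at 154 and 9.66 CPM in Teffs, while Scd2 stood at 178, 160, 326 and 83.3 CPM against 182 and 76.1 CPM. Scd1 split the libraries into high and low ones within each group, and Scd2 was present in all.

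Per kilobase of exon, the ratio of Scd1 to Scd2 was 0.764, 0.00334, 1.77 and 0.0686 in Tregs and 0.942 and 0.142 in Teffs, so Scd1 was above Scd2 in Treg 3 alone. Scd1 was highest in Treg 3 and Teff 1, the libraries with the most fibroblast and keratinocyte transcripts, but stood at 122 CPM in Treg 1, where the fibroblast markers summed to 10.4 CPM. The sebaceous gland markers, 10 of 10 in the table, summed to 263, 67.9, 264 and 139 CPM in Tregs and 172 and 97.9 CPM in Teffs. Of these markers, 6, 8, 3 and 7 had no count in Tregs 1 to 4, and 2 and 6 had none in the Teff libraries. The part of these cells in the Scd1 levels was not tested. Both genes share 8.18% and 6.81% of their exonic windows with other annotated copies such as Scd3.

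Elovl1 lengthens saturated very long chains. It stood at 112, 344, 92.4 and 105 CPM in Tregs and at 85.5 and 90.0 CPM in Teffs, and every Treg library lay above both Teff libraries. Treg 3 was close to Teff 2, and Treg 2 stood far above the rest. The log2 fold change was 0.90 with a 95% interval from -0.59 to 2.38, and it was 0.23 without Treg 2. Elovl1 lies at chr4:118428093-118432953 on the plus strand.

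Elovl5, which lengthens polyunsaturated chains, was the highest member per kilobase. It stood at 280, 618, 744 and 657 CPM in Tregs and at 658 and 594 CPM in Teffs, with a log2 fold change of -0.12 (95% interval -1.09 to 0.85), and Treg 1 alone was low. Elovl6, which lengthens palmitate, stood at 41.5, 3.03, 133 and 94.997 CPM against 109 and 20.7 CPM. Fads1, a front-end desaturase, stood at 37.8, 0, 41.6 and 0.427 CPM in Tregs and 14.1 and 13.7 CPM in Teffs, so 2 Tregs lay above both Teffs and 2 below. Fads2, its partner in making long polyunsaturated fatty acids, held 10, 0, 29 and 0 counts in Tregs and none in Teffs. With the Teffs set to 3 counts over the group, the pooled counts gave a bound of 6.74-fold higher in Tregs. That bound covers counting error only, not the spread between libraries. Treg 3 held most of the Fads2 counts, and without it the bound was 2.25-fold. The fitted fold of Fads2 had a 95% interval from 0.281 to 26479.5, an unadjusted p of 0.108 and an adjusted p of 0.999992 (edgeR).

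The 7 oxidation genes had the most even summed level of the 8 roles, although single genes varied, Cpt2 most (0 to 73.2 CPM in Tregs). Their levels summed to 534, 634, 609 and 550 CPM in Tregs and to 450 and 559 CPM in Teffs, a range of 1.41 times between the lowest and the highest library, where the sterol synthesis sum ranged 3.72 times. The median log2 fold change was 0.42, with 6 positive and 1 negative and 0 called. Cpt1a, the outer-membrane enzyme that commits fatty acids to oxidation, was the negative one. It stood at 19.2, 71.6, 70.6 and 120 CPM in Tregs and at 42.6 and 169 CPM in Teffs, and the groups overlapped. The log2 fold change was -0.59 (95% interval -2.45 to 1.27), and its direction rested on Teff 2, without which it was 0.70.

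Acadvl, which starts the oxidation of very long chains, stood at 185, 247, 238 and 176 CPM in Tregs and at 198 and 194 CPM in Teffs. Its log2 fold change was 0.11, and its 95% interval from -0.70 to 0.92 was the only one among the 40 to stay within 1 in either direction. Exons of Dvl2 overlap 42.9% of its exonic bases, so its level is uncertain. Reads in the overlap may have been left out as ambiguous or counted to either gene. Acadm, the medium-chain enzyme, stood at 66.9, 56.9, 61.5 and 45.5 CPM against 39.3 and 46.4 CPM. Tregs and Teffs overlapped for Acadm only through Treg 4, and its log2 fold change was 0.43 (95% interval -1.02 to 1.88).

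Hadha and Hadhb code for the subunits of the mitochondrial trifunctional protein, which carries out the later steps on long chains. They lie head to head on chromosome 5, with 85 bases between their annotated starts (chr5:30155163-30155247). The bases between them are shown on the Hadhb strand because both starts face them, and no CCAAT or CACCCNAC lies within them, so nothing is in capitals.
Hadha-Hadhb: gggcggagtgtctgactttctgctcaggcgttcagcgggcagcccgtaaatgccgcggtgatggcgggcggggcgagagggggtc
Hadha stood at 159, 133, 90.9 and 134 CPM in Tregs and at 106 and 74.9 CPM in Teffs, with a log2 fold change of 0.51 (95% interval -0.52 to 1.54). Hadhb stood at 24.6, 28.4, 19.9 and 8.67 CPM against 13.9 and 17.8 CPM. Per kilobase of exon, Hadha exceeded Hadhb in every library, by 4.88, 3.55, 3.45 and 11.7 times in Tregs and 5.81 and 3.19 times in Teffs. Hadhb shares 23.7% of its exonic windows with other annotated copies, so its level and this ratio are uncertain.

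Fatty acid uptake and binding rested on few counts. Fabp5, an intracellular fatty acid carrier, stood at 4.50, 17.7, 38.3 and 21.9 CPM in Tregs and 13.6 and 7.73 CPM in Teffs, with 3 of 4 Tregs above both Teffs and a log2 fold change of 0.95 with a standard error of 1.39. Cd36, a surface fatty acid receptor, held 0, 0, 265 and 9 counts in Tregs and 10 and 0 counts in Teffs, so Treg 3 held nearly all of them. Treg 3 was also the highest library for the fibroblast, keratinocyte and adipocyte marker sums, for Fabp5 and for Abca1. Its adipocyte sum was nearly all Car3, and 4 of the 7 adipocyte markers in the table, Adipoq among them, had no count there. The part of those cells in these levels was not tested.

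Among the enzymes that store lipid, Dgat1, which makes triglyceride, stood at 384, 222, 245 and 371 CPM in Tregs and at 201 and 272 CPM in Teffs. Its log2 fold change was 0.37 (95% interval -0.52 to 1.27), and Teff 2 lay among the Tregs. Soat1, which esterifies cholesterol, stood at 159, 115, 181 and 96.0 CPM against 134 and 96.4 CPM, with a log2 fold change of 0.26 and overlapping groups. Dgat2, the other triglyceride synthase, held 0, 1, 2 and 202 counts in Tregs and none in Teffs. With the Teffs set to 3 counts over the group, the pooled counts gave a bound of 35.5-fold higher in Tregs, but Treg 4 alone gave that value. This bound too covers counting error only.

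Abca1 and Abcg1 pump cholesterol out of the cell. Abcg1, at chr17:31057675-31117988, stood at 942, 411, 286 and 424 CPM in Tregs and at 352 and 297 CPM in Teffs, and 3 of 4 Tregs lay above both Teffs. Its log2 fold change was 0.67 with a 95% interval from -0.50 to 1.84 and an unadjusted p of 0.225 (edgeR), and it was 0.20 without Treg 1. Abca1 stood at 2.16, 31.1, 91.6 and 6.40 CPM against 16.1 and 15.1 CPM, with 2 Tregs above the Teffs and 2 below. Per kilobase of exon, Abcg1 exceeded Abca1 in every library, by 620, 18.8, 4.44 and 94.0 times in Tregs and by 31.03 and 28.0 times in Teffs. Their levels summed to 944, 443, 378 and 430 CPM in Tregs and to 368 and 312 CPM in Teffs, so every Treg sum lay above both Teff sums, by little in Treg 3, whose Abca1 was the highest. The sum was not tested.

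Per kilobase of exon, the mean level over all 6 libraries was 168 CPM for Elovl5, 92.5 for Dgat1, 76.8 for Acadvl, 61.9 for Abcg1 and 50.7 for Elovl1. Sc5d, Acly, Cyp51 and Nsdhl followed at 36.8, 36.1, 33.4 and 32.6 CPM per kilobase, closer together than the spread of any of them over the libraries. At the bottom were Idi1, Fads2 and Acaca, at 0.758, 0.347 and 0.225 CPM per kilobase. Exon length joins the exons of all annotated transcripts, 17.07 kilobases for Acaca. Idi1 and Acaca share 27.1% and 33.5% of their exonic windows with other annotated genes or copies, so their places are uncertain. Acadvl's place is uncertain because of the overlap with Dvl2. Elovl1's place rested on Treg 2, at 126 CPM per kilobase against 31.4 to 41.1 in the other libraries.

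**Figure D5:**
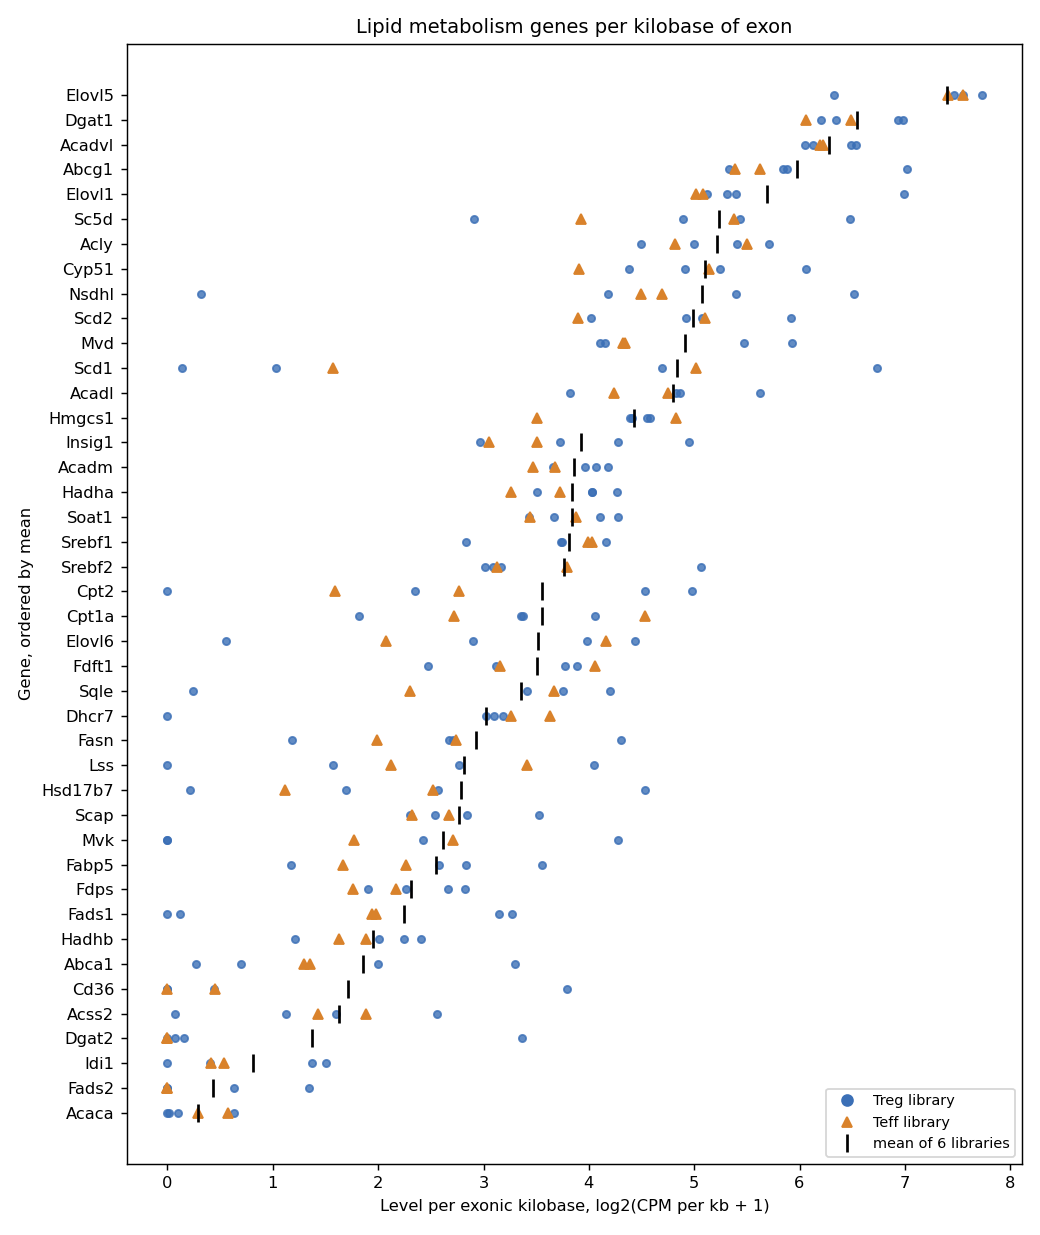
Level per kilobase of exon as log2(CPM per kb + 1) for the 42 genes, ordered by mean, with 1 point per library (circles Treg, triangles Teff) and a tick at the mean. Elovl5 leads, and Scd1 and Nsdhl are among the genes whose Treg libraries spread most widely.

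Other genes of these pathways were counted from separate lists, and 0 of them were called. Of 18 other genes of sterol synthesis and uptake tested, 13 had a positive log2 fold change (median 0.37). Of 14 other fatty acid synthesis genes tested, 10 were positive (median 0.26), of 26 other oxidation genes 15 (median 0.29), and of 21 genes of uptake, activation and lipid droplets 15 (median 0.53). Lipid nuclear receptors and coactivators gave 5 positive and 5 negative. Pparg, the nuclear receptor of adipocytes and sebaceous cells, had at most 1 count in any library. The cell cycle genes were given for comparison because lipid synthesis serves growing cells. They were negative in 16 of 16 (median -1.39), against 5480 of the 11775 genes tested. For 9 of the 16, every Treg library lay below both Teffs, against 9.49% of all genes tested, and 0 were called. Mki67, a marker of cycling cells, stood at 23.7, 162, 321 and 311 CPM in Tregs and 504 and 578 CPM in Teffs.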

How the data were processed

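Per the labels' protocols, RNA of sorted cells was purified on columns and the SMARTer Ultra Low Input kit was used for cDNA libraries. Build mm10 is listed in the submitters' processing notes, as are HTSeq 0.6.1, Bowtie2 2.1.0.0 and TopHat2 2.0.12, with SAMtools 0.1.19.0 and CASAVA 1.8.2 also listed. Annotation and strand setting were not given in the sources used here.

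Raw counts per gene for 6 libraries were deposited by the authors, per the file headers. The same deposited table gives the authors' log2 fold changes and mean log2 CPM, and their p-values and false discovery rates, used only where named. The 3 counter rows that name no gene (88.0% to 90.2% of the column totals) were left out.

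Counts were fitted in R 4.3.3 with edgeR 4.0.16: filterByExpr (count minimum 10), TMM scaling, a quasi-likelihood F test of Treg against Teff over all 6 libraries with no covariate, and Benjamini-Hochberg adjustment over 11775 genes at 0.05. The script was tested on simulated data. DESeq2 1.42.0, other scalings and filters, leaving out libraries and a replicate-number term were alternatives. Exon lengths, overlaps and shared 31-base windows came from GENCODE M21 (GRCm38), which may differ from the authors' annotation.

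The members and lists were chosen with earlier results of these data known. Members described in every library were those called, those with non-overlapping groups and a mean of at least 10 CPM, the 10 with the highest mean and a fixed list of 24. Others named were chosen after their values were seen. Protein sequences were not used here. Single genes of the other sterol list are not reported here.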

Additional observations from a re-analysis of the deposited data

Results flagged for a closer look

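In 6 of 29 named genes, 1 of the 4 Treg libraries stood apart from the other 3 by more than Dixon's 95% critical value for 4 samples. That is 20.7% of them, against 19.6% of the 11686 tested genes with a count in Tregs, so the share was near the background. The sets are not fully alike, because Cd36 and Dgat2, both flagged, were not among the genes tested. The critical value assumes normal values, for which chance gives this in about 1 in 20 groups, while these are CPM with many zeros. Treg 2 was far below the others for Dhcr7, at 0 CPM where the next was 41.4 CPM, and far above them for Elovl1, at 344 CPM where the next was 112 CPM. Treg 1 was far above for Srebf2, at 233 CPM where the next was 57.5 CPM. Treg 3 was far above for Acaca, at 9.44 CPM, and for Cd36, at 46.3 CPM, where the next was 1.28 CPM for each. Treg 4 was far above for Dgat2, at 28.7 CPM where the next was 0.349 CPM.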

How the results depend on the processing

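No member was called under any of the 13 alternatives, and the lowest adjusted p of a named member was 0.889. Genes called over the whole table moved from 5 to 183 with DESeq2, 19 without a filter on low counts, 15 with the replicate block, and 0 to 2 on leaving out each library in turn. With both Treg 3 and Teff 1 left out, an alternative chosen after seeing the data, 0 were called, with 191 genes at an unadjusted p under 0.05. Leaving out 1 library moved the median log2 fold change of the members over 0.24 to 0.79, of oxidation over 0.17 to 0.53, of uptake over 0.47 to 5.26, of esterification over 0.21 to 0.59, of sterol synthesis over -0.0874 to 0.89, of sterol sensing over 0.0968 to 0.63, of fatty acid synthesis over -0.41 to 0.33, of desaturation and elongation over -0.19 to 1.28 and of efflux over 0.32 to 1.08. Without a filter the uptake median was 2.52, since Cd36 then entered. With Treg 3 and Teff 1 left out, the fatty acid synthesis median was 0.47, Fads1 -0.11 and Abca1 -0.19. Upper-quartile scaling, which took the median of all genes from 0.07 to -0.04, gave Acly -0.10, Elovl6 -0.00532 and Acadvl -0.00523, and the members' median was then 0.34 with 29 positive.

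Leaving out 1 library turned the sign of 13 named members, whose log2 fold changes ranged from -0.38 to 1.04 (Hmgcs1), -0.28 to 1.31 (Sqle), -0.0874 to 1.54 (Sc5d), -0.46 to 0.83 (Srebf2), -0.31 to 0.40 (Acly), -0.0945 to 1.36 (Fasn), -0.92 to 4.03 (Scd1), -0.00416 to 1.28 (Scd2), -0.11 to 0.93 (Fads1), -0.27 to 0.10 (Elovl5), -0.72 to 1.71 (Elovl6), -1.28 to 0.70 (Cpt1a) and -0.24 to 1.46 (Abca1). Of 344 values of single members under the alternatives, 315 kept direction and side of the threshold and 29 changed sign. The cause was not tested.

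Replicate numbers 1 and 2 are shared by both groups, but deviations of same-numbered libraries correlated at -0.0122 and 0.169. With 2 Teff libraries the crossed values are the same with opposite sign, so this check does not settle whether the numbers pair the libraries, and the labels do not say. The replicate block leaves Tregs 3 and 4 out of the comparison, and 23 of the 40 members tested were positive in it. It gave 0 members called, a fatty acid synthesis median of -0.83, a desaturation and elongation median of -0.59, an efflux median of 0.0249, and Scd1 -1.96, Fads1 -2.70, Elovl6 -2.06, Fabp5 -0.19 and Abca1 -0.89, beside a median of all genes of -0.64.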
